A study of Mus musculus with 7 samples.

Results

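The endothelial genes Kdr, Flt1, Pecam1, Cdh5, Tek, Tie1, Emcn and Etv2 were described in RNA-seq of the posterior end of mouse embryos. They were taken by name from the deposited table, where all 8 had a row of their own among 25965 listed genes, and all 8 passed the filter on low values that left 13997 genes for testing. The tissue was the posterior end of the body, taken about 1 somite length past the last visible somite, of female FVB/N embryos at E9.5, named postsomitic in the sample labels and presomitic in the series title. The genotypes were Smchd1 +/+ (wild-type, 3 libraries) and Smchd1 MommeD1/MommeD1, which the series text calls null (4 libraries, where that text names 3). The sources do not say whether a library is 1 embryo, so the tests measure library-to-library spread, which may be technical. Smchd1 is a chromosomal protein related to the SMC family, and the comparison was of its presence with its loss.

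The first vessels of the embryo form from mesodermal angioblasts under the ETS factor Etv2, which acts early and briefly upstream of the VEGF receptor gene Kdr. VEGF signals through Kdr, with Flt1 as a high-affinity receptor that holds ligand back. Angiopoietins signal through Tek, whose relative Tie1 modulates it. Cdh5 and Pecam1 encode adhesion proteins of endothelial junctions and Emcn a sialomucin of the endothelial surface. In the tail such transcripts are found in vessels that run beside the mesoderm, but which cells gave the reads here was not tested. In a bulk sample fewer endothelial cells and less RNA per cell cannot be told apart.

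Promoter windows are shown for the 4 receptor tyrosine kinases, the signalling receptors among the members, because Etv2 and other ETS factors act on such genes (RefSeq, GRCm38.p6; 250 bases before to 50 after the start, 5′ to 3′ on the gene's strand). Capitals mark GGAA or its reverse complement TTCC, the core that ETS factors recognise, wherever the letters occur on either strand. The windows are chr5:75978406-75978705 on the minus strand for Kdr, chr5:147725962-147726261 on the minus strand for Flt1, chr4:94739039-94739338 on the plus strand for Tek and chr4:118489800-118490099 on the minus strand for Tie1.
Kdr: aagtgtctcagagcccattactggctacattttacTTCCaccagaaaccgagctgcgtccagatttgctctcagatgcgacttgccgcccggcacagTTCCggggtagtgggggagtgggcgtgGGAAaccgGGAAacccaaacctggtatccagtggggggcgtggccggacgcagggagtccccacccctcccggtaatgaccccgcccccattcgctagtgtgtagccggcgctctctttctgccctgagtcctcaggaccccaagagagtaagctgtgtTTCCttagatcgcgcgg
Flt1: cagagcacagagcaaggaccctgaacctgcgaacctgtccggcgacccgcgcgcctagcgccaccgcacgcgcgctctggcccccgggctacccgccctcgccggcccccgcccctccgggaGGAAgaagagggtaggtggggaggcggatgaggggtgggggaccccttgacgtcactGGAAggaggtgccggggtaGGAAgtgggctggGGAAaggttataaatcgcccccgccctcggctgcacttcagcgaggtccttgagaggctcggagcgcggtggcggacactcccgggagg
Tek: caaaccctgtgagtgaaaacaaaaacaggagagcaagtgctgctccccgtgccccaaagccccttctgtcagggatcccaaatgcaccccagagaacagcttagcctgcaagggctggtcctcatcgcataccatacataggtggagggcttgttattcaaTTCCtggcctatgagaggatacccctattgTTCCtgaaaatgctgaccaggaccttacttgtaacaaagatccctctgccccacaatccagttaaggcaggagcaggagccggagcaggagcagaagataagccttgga
Tie1: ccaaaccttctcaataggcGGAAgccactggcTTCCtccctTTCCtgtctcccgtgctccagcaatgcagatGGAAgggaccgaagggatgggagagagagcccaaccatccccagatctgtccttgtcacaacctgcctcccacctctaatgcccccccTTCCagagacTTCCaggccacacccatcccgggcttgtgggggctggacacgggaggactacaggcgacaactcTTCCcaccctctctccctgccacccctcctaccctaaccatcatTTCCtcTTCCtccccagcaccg

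The core occurred 5 times in the Kdr window, 4 times in Flt1, 2 times in Tek and 9 times in Tie1. Outside these kinases it occurred 6 times in the Emcn window and 11 times in that of Etv2. Of the 8 genes, 6 had a window, and Pecam1 and Cdh5 had none. At least 1 match stood in 96.0% of all 32851 windows, with a median of 3 matches. The longer motif CCGGAAGT, which contains the core, was in none of the 6 windows and in 3.89% of all windows. ACAGGAAG, another motif with the core, was in the Emcn window only and in 3.58% of all windows. The counted Tie1 row begins at chr4:118490061 on the minus strand, so most of the Tie1 window lies inside that row. These matches describe letters in the windows and are not binding data.

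Values are given as depth-scaled read counts (RPM), scaled further so that the median autosomal gene is equal in all libraries, and are called centred RPM. The scaling moved single libraries by -0.14 to 0.28 on the log2 scale. On the deposited scale the median change of all genes tested was 0.16 (log2, null minus wild-type), against -0.03 after centring. Reads in listed genes numbered 19622596 to 23548995 in wild-type and 22137823 to 23847381 in null libraries. Libraries are lettered in the order of the table, since its column names give the genotype but no sample number of the labels. Smchd1 itself stood at 95.7, 104 and 98.9 centred RPM in the wild-type libraries and at 27.6 to 33.6 in the null libraries (limma adjusted p = 9.54e-05). The presomitic mesoderm marker Tbx6, which specifies this tissue, had 2211 to 3199 reads. Other markers on the presomitic list were uneven between libraries, with 3 to 184 reads for Mesp2 and 6 to 311 for Ripply2.

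Per kilobase of annotated exon, Cdh5 was the highest of the 8 genes, at 11.0 ± 1.86 centred RPM per kb (SD over 7 libraries). Tie1 followed at 6.98 ± 1.38 and Kdr at 6.02 ± 1.25, and in 7 of 7 libraries each stood below the one before it. Tek (4.37 ± 1.02) and Pecam1 (4.17 ± 0.942) did not differ in order, with Tek above in 4 of 7 libraries. Emcn (2.62 ± 0.586), Flt1 (1.99 ± 0.339) and Etv2 (1.03 ± 0.358) were lower, in this order in 7 of 7 libraries. The exon length counts all annotated isoforms, 13504 bases for Flt1, which lowers its level if short isoforms are used. Etv2 was measured on 30 to 117 reads and the other 7 genes on 497 to 4432.

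None of the 8 genes passed the test between genotypes at an adjusted p of 0.05 over all genes tested (limma), on the centred or the deposited scale. The background was low: 0.0572% of the 13997 genes passed on the centred scale and 0.0429% on the deposited scale. At an unadjusted p under 0.05, none passed on the centred scale and 1, Kdr, on the deposited scale (change 0.50, limma adjusted p = 0.327). Of all genes tested 14% had such a p on each scale. All 8 centred changes were above 0, with a median of 0.24 on the log2 scale, against a median of -0.03 over all genes. No member had groups that did not overlap, while 6.51% of all genes lay higher in every null library and 6.24% lower in every null library. Without wild-type library B the median change of the 8 genes was -0.09, and with libraries weighted by their quality in limma it was 0.04.

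The VEGF receptors were the first group. Kdr (mm10 chr5:75932827-75978458, minus strand) stood at 58.5, 32.7 and 54.7 centred RPM in wild-type libraries A to C and at 51.8, 63.6, 67.7 and 51.4 in null libraries A to D. Wild-type B was the lowest of all, and the remaining wild-type libraries lay inside the null range. The log2 change was 0.30 (SE 0.20, limma adjusted p = 0.438), or 1.24-fold with a 95% interval from 0.901 to 1.69. Without wild-type B it was 0.04.

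Flt1 (mm10 chr5:147561604-147726011, minus strand) stood at 29.1, 16.7 and 29.6 centred RPM in the wild-type libraries and at 27.4, 27.6, 29.3 and 28.6 in the null libraries. Apart from wild-type B it was nearly flat: the SD over the other 6 libraries was 0.05 on the log2 scale, where counting alone gives about 0.03. The change was 0.21 (SE 0.18, limma adjusted p = 0.536), with a 95% interval from 0.869- to 1.55-fold. Without wild-type B it was -0.06, with an interval on the log2 scale from -0.18 to 0.07. In centred RPM, Kdr exceeded Flt1 by a log2 ratio of 0.96 ± 0.06 (SD, n = 3) in wild-type and 1.05 ± 0.19 (SD, n = 4) in null libraries. This ratio is not corrected for exon length, and per kilobase the 2 genes stood further apart (6.02 and 1.99).

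The angiopoietin receptor Tek (mm10 chr4:94739289-94874976, plus strand) stood at 25.3, 12.7 and 24.4 centred RPM in wild-type and at 19.4, 20.8, 25.3 and 16.4 in null libraries. Its highest wild-type and null values were equal to within rounding, and 2 of 3 wild-type libraries lay above 3 of 4 null libraries. The change was 0.03 (SE 0.25, limma adjusted p = 0.956), or 1.02-fold with a 95% interval from 0.692 to 1.51. Without wild-type B it was -0.29 (limma adjusted p = 0.71).

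Tie1 (mm10 chr4:118471191-118490061, minus strand) stood at 38.5, 23.4 and 38.3 centred RPM in wild-type and at 29.5, 36.4, 43.3 and 30.7 in null libraries. Again wild-type B was lowest and null C highest, with the groups overlapping. The change was 0.09 (SE 0.20, limma adjusted p = 0.833), with a 95% interval from 0.775- to 1.45-fold, and without wild-type B it was -0.15. The log2 ratio of Tie1 to Tek in centred RPM, not corrected for exon length, was 0.72 ± 0.15 (SD, n = 3) in wild-type and 0.77 ± 0.13 (SD, n = 4) in null libraries.

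**Figure D1:**
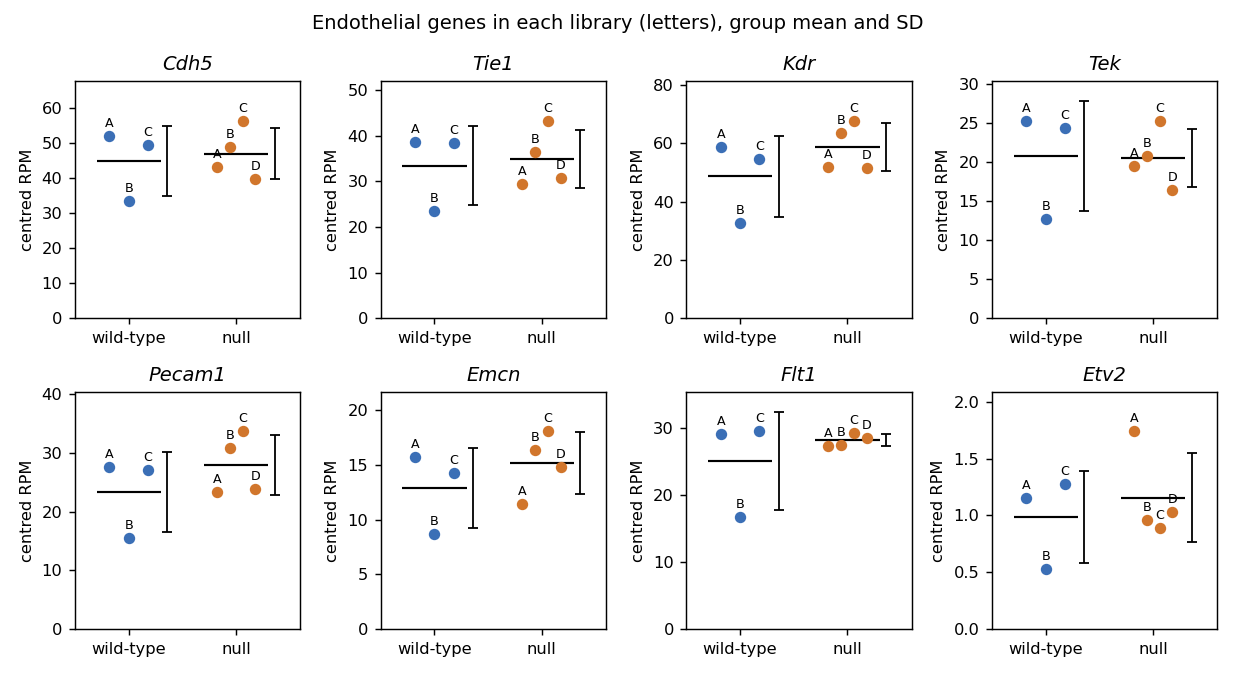
Centred RPM (vertical axes, from 0, 1 scale per gene) of the 8 endothelial genes in each library. Points carry the library letter, horizontal lines are group means, and bars beside them are the SD (n = 3 wild-type, n = 4 null). In every panel wild-type B is the lowest point and the groups overlap.

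Of the junction genes, Cdh5 (mm10 chr8:104101625-104144502, plus strand) stood at 52.0, 33.6 and 49.4 centred RPM in wild-type and at 43.2, 48.9, 56.5 and 39.6 in null libraries. Wild-type A and C each lay above 3 of the 4 null libraries. The change was 0.08 (SE 0.17, limma adjusted p = 0.82), with a 95% interval from 0.808- to 1.38-fold, the narrowest of the 8, and without wild-type B it was -0.12. Pecam1 (mm10 chr11:106654217-106750628, minus strand) stood at 27.5, 15.5 and 27.1 centred RPM in wild-type and at 23.4, 30.8, 33.7 and 23.9 in null libraries. Null B and C lay above every wild-type library and null A and D between them. Its change was 0.28 (SE 0.22, limma adjusted p = 0.499), with a 95% interval from 0.862- to 1.72-fold, and 0.01 without wild-type B.

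Emcn, the sialomucin gene (mm10 chr3:137341067-137432185, plus strand), stood at 15.7, 8.69 and 14.2 centred RPM in wild-type and at 11.4, 16.4, 18.1 and 14.8 in null libraries. Null B and C lay above all wild-type libraries, and null A below 2 of them. The change was 0.26 (SE 0.22, limma adjusted p = 0.536), with a 95% interval from 0.843- to 1.70-fold, and 0.0023 without wild-type B.

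Etv2, the early factor (mm10 chr7:30633616-30635852, minus strand), stood at 1.15, 0.525 and 1.28 centred RPM in wild-type and at 1.74, 0.962, 0.891 and 1.03 in null libraries. These values rest on 79, 30 and 72 reads in wild-type and 117, 67, 58 and 73 in null libraries. Null A was highest, and the other 3 null libraries lay below wild-type A and C. The change was 0.28 (SE 0.38, limma adjusted p = 0.705), and its 95% interval from 0.664- to 2.22-fold was the widest of the 8.

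**Figure D2:**
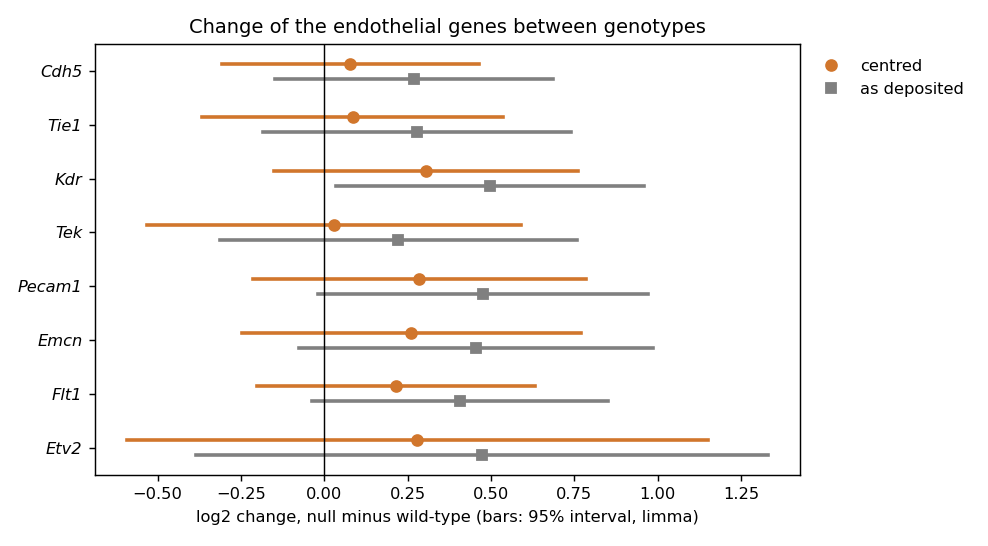
Log2 change (horizontal axis, null minus wild-type) of each endothelial gene with its 95% interval from limma, on the centred scale (orange circles) and as deposited (grey squares). The 8 centred intervals include 0, and the deposited changes lie 0.19 further to the right for each gene, so that the Kdr interval there begins at 0.03.

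On the deposited scale the count of called members depended on 1 library. Without wild-type A, Kdr, Flt1, Pecam1 and Emcn passed there (4 of 8, limma adjusted p from 0.0285 to 0.0453), in a fit where 30.3% of all genes passed. On the centred scale 0 of 8 passed, whichever library was left out.

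The 8 genes shared a low value in 1 library. Wild-type B was the lowest library for 8 of 8 genes, against 22.7% of all genes tested. Relative to the mean of wild-type A and C, wild-type B stood at 0.577 for Kdr, 0.568 for Flt1, 0.568 for Pecam1, 0.663 for Cdh5, 0.510 for Tek, 0.609 for Tie1, 0.582 for Emcn and 0.432 for Etv2. Null C was the highest library for 6 genes, the exceptions being Flt1 (wild-type C) and Etv2 (null A).

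The spread of each gene was compared before and after the mean of the other 7 was subtracted. For Kdr the SD over 7 libraries fell from 0.34 to 0.10 on the log2 scale, and for Flt1 from 0.30 to 0.11. It fell from 0.36 to 0.12 for Pecam1, from 0.26 to 0.13 for Cdh5, from 0.37 to 0.15 for Tek, from 0.30 to 0.13 for Tie1 and from 0.36 to 0.18 for Emcn. Etv2 kept most of its spread (0.53 against 0.46), with counting error of about 0.17 at its depth. In null A, Etv2 was 0.76 above its mean while the mean of the other 7 genes was -0.10, and in null C it was -0.20 while the other 7 stood at 0.33. Much of this spread came from wild-type B. Over the other 6 libraries the SD was 0.16 for Kdr and 0.11 after subtraction, 0.20 and 0.13 for Pecam1, 0.18 and 0.07 for Cdh5, 0.25 and 0.16 for Tek, and 0.21 and 0.12 for Tie1. For Emcn it was 0.22 and 0.20, and for Flt1 and Etv2 it was larger after subtraction (0.05 and 0.12, 0.35 and 0.47). These values carry no test.

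**Figure D3:**
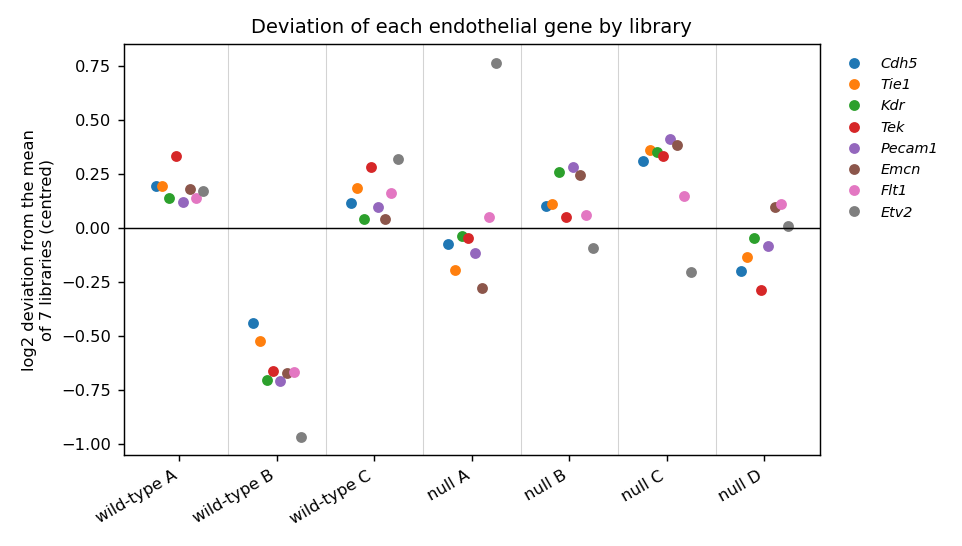
Deviation of each endothelial gene from its own mean of 7 libraries (vertical axis, centred log2), 1 point per gene and library. In wild-type B all 8 points lie between -0.97 and -0.44, in wild-type A and C all lie above 0, and Etv2 (grey) stands apart in null A at 0.76.

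The column names end in 18, 21 or 22, numbers that the sources used here do not explain and that occur in both genotypes. Under 18 (null A against wild-type B), all 8 genes were higher in the null library. Wild-type B was the lowest library for all 8, so this direction restates that low value. The differences were 0.66 for Kdr, 0.72 for Flt1 and 1.73 for Etv2 on the centred log2 scale. Under 21 (null D against wild-type C), 7 of 8 were lower, by -0.57 for Tek and -0.09 for Kdr, and Emcn was 0.06 higher. Under 22 (null B and C against wild-type A), the differences lay between -0.32 for Etv2 and 0.23 for Pecam1. With 1 or 2 libraries a side these have no test. With the number as a block, 0 of 8 genes passed, where 0.0572% of all genes did. The smallest adjusted p was 0.267, for Emcn, with a change of 0.19 (limma). Tek then had a change of -0.04.

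The column names also hold a 4-digit number, again not explained, and 4180 occurs in wild-type B, wild-type C and null D. Within it, null D was compared with the mean of the 2 wild-type libraries, which includes the low wild-type B (centred log2, no test). Null D differed by 0.28 for Kdr, 0.41 for Emcn and -0.10 for Tek. Against wild-type C alone the differences were -0.09, 0.06 and -0.57.

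Other genes of the vascular system were read from 4 lists of 68 genes, of which 67 were in the table and 65 were tested. None passed on either scale (limma). At an unadjusted p under 0.05 on the centred scale, 3 of the 65 were higher (Robo4, Sox17 and Stab2) and 0 lower. Of all 13997 genes tested, 1020 were higher and 939 lower, together 14%. The median change of the 65 was 0.13, and 69.2% of them had a change above 0, against 42.5% of all genes tested. Wild-type B was the lowest library for 47 of the 65 (72.3%). Without wild-type B their median change was -0.03.

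Ligands had the smallest median change of these lists, 0.06 over 10 tested genes, 5 of them above 0. Vegfa, the main ligand of Kdr, stood at 47.4, 42.1 and 48.3 centred RPM in wild-type and at 53.7, 47.2, 47.2 and 64.6 in null libraries. Wild-type B was its lowest library too, by less than for the receptors, and its change was 0.20 (SE 0.11, limma adjusted p = 0.393). Without null D that change was 0.10, and with library weights 0.085. Angpt1, the agonist ligand of Tek, stood at 9.55, 3.60 and 9.57 in wild-type and at 7.50, 11.7, 13.2 and 8.94 in null libraries (change 0.55, limma adjusted p = 0.435, and 0.08 without wild-type B). Bmp10 had 0 reads in every library, which allows up to 0.0507 RPM in the library with the highest limit.

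Other receptors had a median change of 0.15 over 15 genes, 10 of them above 0. Robo4, a guidance receptor of endothelium, stood at 5.52, 2.01 and 5.34 centred RPM in wild-type and at 4.85, 11.8, 11.2 and 6.75 in null libraries. Null B to D lay above wild-type A and C, while null A lay below them. Its change was 1.06 (SE 0.43, limma adjusted p = 0.352), and 0.58 without wild-type B. S1pr1, the receptor for sphingosine-1-phosphate, had a change of 0.42 (limma adjusted p = 0.391), 0.11 without wild-type B and 0.64 without wild-type A.

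Transcription factors had a median change of 0.08 over 16 genes, 10 of them above 0. Sox17, a factor of arterial endothelium that is also on the hindgut list, stood at 5.13, 2.97 and 5.68 centred RPM in wild-type and at 5.70, 5.73, 7.62 and 6.82 in null libraries. It was the only one of the 65 genes whose null libraries all lay higher, where 6.51% of all genes tested did so. Its values in null A and wild-type C were nearly equal. Its change was 0.54 (SE 0.23, limma adjusted p = 0.352), 0.25 without wild-type B and 0.33 with library weights. Nr2f2, a factor of venous endothelium and of other mesoderm, had a change of -0.40 (limma adjusted p = 0.373), and -0.20 on the deposited scale and -0.26 without null B.

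Adhesion and surface genes had a median change of 0.12 over 24 genes, 20 of them above 0. Stab2, a scavenger receptor of sinusoidal endothelium, stood at 0.847, 0.332 and 0.639 centred RPM in wild-type and at 1.34, 1.36, 2.63 and 0.807 in null libraries, on 19 to 171 reads. Null A to C lay above all wild-type libraries and null D did not. Its change of 1.31 (SE 0.46, limma adjusted p = 0.352) was the largest of the 65. It was 0.52 with 1 RPM added before the log and 0.90 after quantile normalization. Ptprb, the endothelial receptor phosphatase, had a change of 0.44 (limma adjusted p = 0.373), and 0.16 without wild-type B. On the deposited scale, 22 of the 65 passed without wild-type A, in the fit where 30.3% of all genes passed. With the column number as a block 9 passed on that scale, where 5.3% of all genes did.

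**Figure D4:**
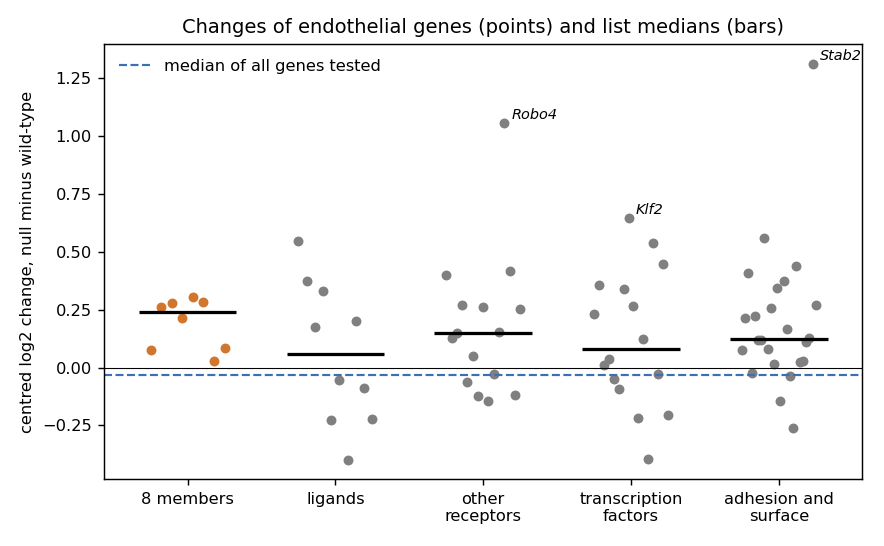
Centred log2 change (vertical axis, null minus wild-type) of the 8 members (orange) and of the tested genes of the other vascular lists (grey), 1 point per gene, with list medians as black bars. The dashed line is the median of all genes tested at -0.03, and every list median lies above it.

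Markers of other cell types also differed between libraries, in part in the same libraries as the endothelial genes. The 8 members summed to 248, 144 and 239 centred RPM in wild-type A to C and to 208, 245, 275 and 206 in null A to D. The primitive erythroid list, 12 genes of the circulating blood led by Slc4a1 and Hba-x, summed to 138, 86.3 and 239 in wild-type and to 170, 162, 108 and 108 in null libraries. Wild-type B thus had the lowest sum for both, whereas null C, highest for the endothelial genes, was among the lowest null libraries by erythroid sum. Wild-type B was the lowest library for 8 of the 11 erythroid genes tested, among them Slc4a1 (13.7 centred RPM, against 16.6 to 67.1 elsewhere). The globin genes went otherwise in part: Hba-x (20.1 in wild-type B, 19.5 in null D) and Hbb-y were lowest in null D, and Hba-a1 in null C. Of the 11 erythroid genes tested 0 passed, with a median change of -0.14. The list of other blood cells summed to 15.5 to 26.2 in wild-type and 17.7 to 19.7 in null libraries, again lowest in wild-type B. Of its 6 tested genes, 3 were lowest in wild-type B, whereas Csf1r, Myb and Cd68 were lowest in null A.

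Neural tube markers ran the other way, as did most somite markers. The 8 neural genes summed to 66.0, 140 and 56.1 centred RPM in wild-type and to 73.8, 50.2, 33.9 and 78.0 in null libraries. Wild-type B was thus the highest and null C the lowest neural library, the reverse of the endothelial genes. Somite markers were also highest in wild-type B, at 117, and lowest in null C, at 36.5. That sum is carried by Meox1, Foxc2 and Pax3, whereas Pax9 was lowest in wild-type B (0.49 centred RPM, against at least 2.87 elsewhere). Lateral plate markers stood at 249, 131 and 242 in wild-type and at 207, 154, 277 and 111 in null libraries. The sum of presomitic markers lay between 312 and 357, but its genes moved in opposite directions. In wild-type B, T was lowest, below the 62.8 to 96.0 of the other libraries, and Dll1 highest (107, against 64.5 to 77.7). Notochord markers summed to 23.8 to 28.2 in wild-type and 36.5 to 46.0 in null libraries. Hindgut markers summed to 106 to 147 and 132 to 145, and surface ectoderm markers to 41.2 to 62.7 and 57.2 to 63.7. Wild-type B was the lowest library for the notochord, hindgut and surface ectoderm sums too. The part of these markers in the endothelial values was not tested, and this reading of the lists was made after their values were seen. Of the marker genes, Pax1 had 0 to 2 reads, Uncx 0 to 19 and Olig2 0 to 88.

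**Figure D5:**
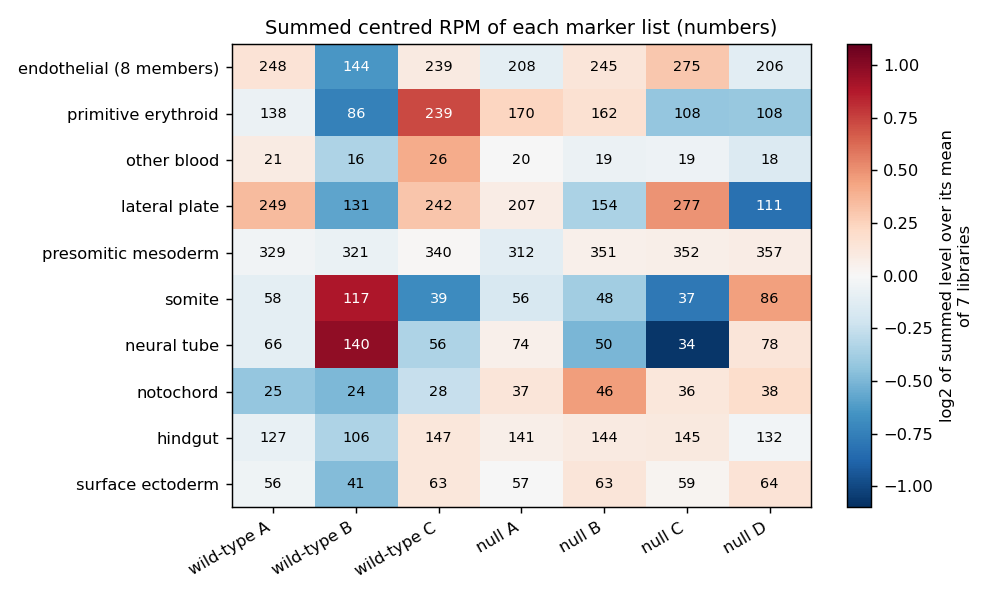
Summed centred RPM of each marker list (numbers) in each library (columns), coloured by the log2 of that sum over its mean of 7 libraries. Wild-type B is low for the endothelial (144) and erythroid (86) lists and high for somite (117) and neural tube (140) lists. It is also the lowest library for the other blood, notochord, hindgut and surface ectoderm lists.

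The 8 genes most like the mean profile of the endothelial members over the 7 libraries, by Pearson r on centred log2 values, were Evx2, Adam12, Prkch, Ubash3b, Parvb, Ctsh, Dsg2 and Unc5d. Their r lay between 0.987 and 0.996, with Spearman rho from 0.857 to 0.964. The libraries share tissue and scaling, and the ranking was of 13989 genes, so these values are a description with no p. Evx2, a homeobox gene beside the Hoxd cluster, had 8 reads in wild-type B and at least 144 in each other library. Unc5d, a netrin receptor gene, had 7 and at least 94. Without wild-type B, r of the 8 lay between 0.894 and 0.971. With deviations taken from the mean of each group, 4 of the 8 were also among the top 8. Of the 65 other vascular genes, 4 were in the top 50 by r over the 7 libraries. Their median rank was 776 among the 13989 genes, so as a group they stood high in this ranking. It includes the low wild-type B and carries no test.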

How the data were processed

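RNA-seq was measured in 7 libraries. The build mm10 and the tools edgeR, TopHat2 2.0.12 and bcl2fastq are named, with no order, per the submitters' processing notes. How reads were counted, with which annotation and strand setting, is not stated in any source at hand. The table the authors deposited holds log2 RPM values. Whole reads were recovered (each value under 1000 reads came to a whole read count, tolerance 0.01), against denominators of 59.2 to 68.2 M reads, of which 28.8% to 37.9% lay in listed genes. No listed gene overlapped a member. Reads of Xist and its antisense Tsix differed by at most 18, so strand was not told apart.

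The filter kept genes whose deposited log2 value exceeded 0 in 3 or more libraries. They were tested with limma 3.58.1 in R 4.3.3 (prior trend, two-sided, Benjamini-Hochberg over 13997 genes, threshold 0.05). The main fit subtracted the autosomal median of each library, since the denominator includes reads outside listed genes. SDs are over libraries, and SEs and 95% intervals come from limma. The upper limit given at 0 reads (3 reads) covers counting error only. Exon lengths are from GENCODE M21, and 99.6% of shared names overlapped there. The fit was tested on simulated data. The members, gene lists and alternatives were chosen with earlier results of these data known. Named were all members, the 2 genes of smallest p in each of the 4 other vascular lists, any of those lists whose groups did not overlap, the 8 genes most like the members, and Smchd1. Marker genes of other cell types and Bmp10 were named after their values were seen, except the 2 most abundant erythroid genes. Figures were drawn with matplotlib 3.10.9 and tables made with pandas 2.3.3 (numpy 2.4.6) under Python 3.11.15.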

Additional observations from a re-analysis of the deposited data

How the results depend on the processing

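No member passed in any of the 18 alternatives to the centred main fit. They were the deposited scale, other normalizations, filters, variance models, voom on the recovered reads, the column-number block and leaving out each library. The deposited scale and the other normalizations were not centred on the autosomal median. The median member change was 0.04 with array weights, 0.15 with 1 RPM added and 0.18 to 0.43 in the other fits with all libraries. Over the 18 alternatives together, 131 of 143 member values were above 0. The exceptions were Tek with array weights (-0.10) and with the column-number block (-0.042), Etv2 with array weights (-0.077) and quantile normalization (-0.15), and fits without 1 library, which gave -0.056 to 0.36 for Flt1, -0.12 to 0.20 for Cdh5, -0.29 to 0.20 for Tek, -0.15 to 0.21 for Tie1 and -0.12 to 0.52 for Etv2; the lowest value was without wild-type B in each case. On the deposited scale, leaving out 1 library gave 0 to 4 called members, a median member change of 0.061 to 0.70, 0 to 22 other vascular genes called, and changes of -0.14 to 0.52 for Tek and -0.0037 to 0.52 for Tie1. The column-number block, chosen for that scale after seeing the data, gave 9 other vascular genes called. The cause was not tested. No paired analysis was possible because the columns do not carry the replicate numbers of the labels; the fits with the column number as a block match libraries by a number of unknown meaning instead. With 30 to 117 reads Etv2 has the least precise values, and it was not tested under the stricter filter.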
